A study of Bos taurus with 2 samples.

Results

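Among the long genes of the male-specific region of the cattle Y chromosome (MSY), 2 neighbours on the short arm were examined here because each had one end almost free of CpG methylation. The first is LOC132344466, at 7437959 to 7623372, which the gene list of the study names KDM6A. The second, called the second gene below, lies at 7715848 to 7866350. All CpGs inside these genes or within 1 kb of them were taken, which gave 1113 CpGs for LOC132344466 and 2983 for the second gene, or 4096 of the 975164 CpGs of the chromosome with a PacBio value. The members were chosen by their low level at one end, so the levels of the ends are a description and carry no test.

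The data came from cattle lung DNA, with 1 PacBio HiFi library and 1 Oxford Nanopore Technologies (ONT) library. The labels give neither the animal nor its age. By the study's account both libraries share 1 sample source, and its Y chromosome was assembled from 1 fetal F1 of Wagyu and Charolais. No treatment or other condition was compared, and with 1 library per platform no test between samples was possible. The spread given below is the standard deviation (SD) over CpGs of a library, which is not an error between animals. The sequenced DNA came from whole lung, so a level is an average over all its cell types. Positions refer to the Y chromosome in ARS-UCD2.0 and increase from the short-arm end.

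Most CpGs of a mammalian genome carry methylated cytosine, whereas the CpG-rich stretches at the starts of many genes, the CpG islands, do not. The bodies of transcribed genes are usually methylated. KDM6A is a histone demethylase that removes methyl groups from histone H3, and its counterpart on the Y chromosome is known as UTY in other mammals. Genes of this kind survive from the time when the X and Y chromosomes still recombined over their whole length, and several such genes are expressed in many tissues. The gene table used here gives no strand. The gene list of the study places both genes on the minus strand, so that the unmethylated end, which has the higher coordinates in each gene, is the end where the annotated transcript begins.

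At the unmethylated end of LOC132344466, over 1 kb on either side of position 7623372, all 85 CpGs were below 20% on PacBio and on ONT. The PacBio level was 3.11% ± 1.02 (SD over CpGs, n = 85), with single CpGs from 2.2% to 9.1%. The ONT level, the mean of its 2 strand rows per CpG, was 1.61% ± 1.89, with single CpGs from 0% to 11.5%. The part inside the gene and the part outside it did not separate, with PacBio levels of 3.07% over 49 CpGs and 3.17% over 36 CpGs. Of 4460 read observations on PacBio, 96 were estimated as modified, or 2.15% (95% Wilson interval 1.77 to 2.62), an interval that covers counting error only. Neighbouring CpGs share reads, so these observations are fewer independent molecules than their number.

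The unmethylated end of the second gene, around position 7866350, was as low and much richer in CpGs. It held 204 CpGs in the same span, 102 CpGs per kb against 42.5 per kb at LOC132344466. The PacBio level was 3.66% ± 2.71 (SD over CpGs, n = 204) and the ONT level 1.63% ± 1.88. On PacBio 202 of these CpGs were below 20% and the other two reached at most 29.9%, whereas on ONT all 204 were below 20%. Inside the gene the PacBio level was 3.24% over 62 CpGs and outside it 3.84% over 142 CpGs. On PacBio 374 of 13165 read observations were estimated as modified, or 2.84% (95% Wilson interval 2.57 to 3.14). Over all ends of MSY protein-coding genes with at least 5 CpGs, 2.04% had a mean below 20% on PacBio and 2.49% on ONT, and with the PAR included 4.09% and 4.52%. These are the shares from which the 2 ends were picked. They depend on the threshold, and at 30% the number of MSY ends rose from 9 to 29 on PacBio and from 11 to 47 on ONT.

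The levels are means of the PacBio score, which is not the share of estimated modified reads. The mean scores of 3.11% and 3.66% lie above the intervals of those shares. At position 7623367, 5 bp from the end of LOC132344466, 1 of 52 PacBio reads was estimated as modified (1.92%, 95% Wilson interval 0.340 to 10.1), its score was 3.2%, and both ONT rows stood at 0%. At position 7866353, 3 bp from the end of the second gene, it was 2 of 73 reads (2.74%, 0.755 to 9.45), and the ONT rows stood at 4.44% and 3.92%. The ONT data give no read counts, so a 0 there may be a measured value or a missing call. An ONT row at 0 occurred at 74 of the 85 CpGs of LOC132344466 and at 164 of the 204 of the second gene. The CpGs without such a row, 11 and 40 in number, had ONT levels of 4.10% and 3.67%. They were picked by their ONT values, which raises these means.

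**Figure D1:**
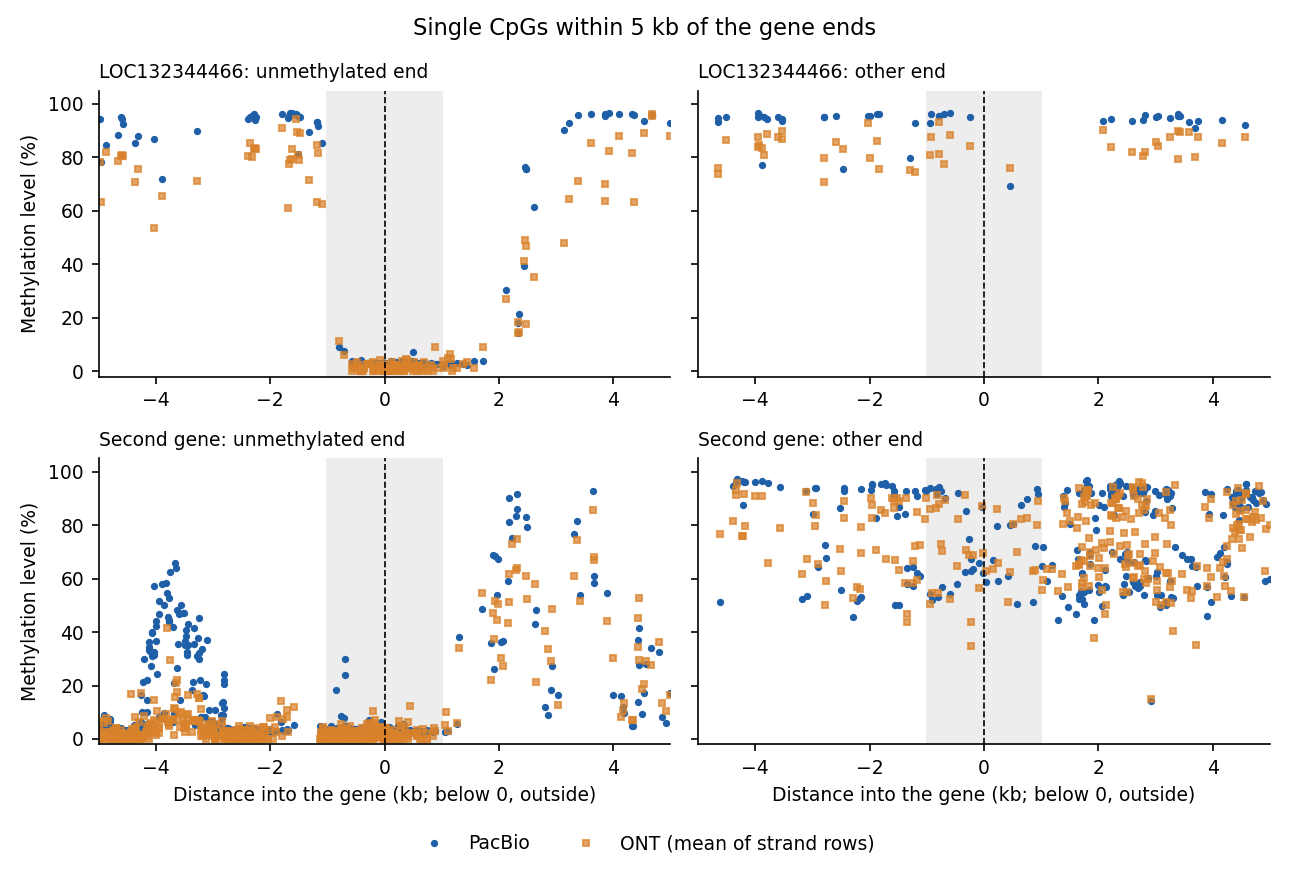
Methylation level (%) of single CpGs on PacBio (circles) and ONT (squares, mean of the strand rows) against the distance in kb from each annotated gene end, positive into the gene, with the 1 kb windows shaded. Most CpGs in both windows of the left column lie near 0%, with 2 above 20% on PacBio at the second gene, those at the other end of LOC132344466 lie high and are only 8 in number, and those at the other end of the second gene spread from 50.5% to 94.2% on PacBio.

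The unmethylated stretches were placed differently around the gene ends. A run was defined as consecutive CpGs below 20%, with at most 1 higher CpG between neighbours below it. At LOC132344466 PacBio gave 1 run of 101 CpGs over 3142 bp, from 7621037 to 7624178, and ONT 1 run of 102 CpGs over 3156 bp. Most of the PacBio run, 2336 bp with 65 CpGs, lay inside the gene, and 806 bp with 36 CpGs lay outside. Its outer edge was abrupt. The CpG 805 bp beyond the gene end, just within the 1 kb limit, had 9.1% on PacBio and 11.5% on ONT, and the next one, 1090 bp beyond it and just outside the limit, had 85.5% and 62.6%. The inner edge was more gradual, and in steps of 250 bp PacBio first exceeded 50% at 2500 to 2750 bp into the gene and 80% at 3000 to 3250 bp, steps that held 1 and 2 CpGs. Windows of 2 kb, which reach past the outer edge, raised the level of this end to 15.7% on PacBio and 12.7% on ONT.

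At the second gene the unmethylated stretch lay mainly outside the annotated gene. PacBio gave 6 runs of at least 5 CpGs, less than 1 kb apart, from 7865086 to 7871394, and ONT gave 1 unbroken run of 538 CpGs from 7865086 to 7871375. The first of the PacBio runs, the one at the gene end, covered 1947 bp with 158 CpGs. Over the 6309 bp on PacBio there were 540 CpGs, of which 474 were below 20%. Only 1265 bp with 66 CpGs lay inside the gene, and 5044 bp with 474 CpGs lay outside. The CpGs at the 1 kb limit were alike, with 2.7% on PacBio just inside it and 3.1% just outside. Further out the platforms parted. The 66 CpGs of this stretch at or above 20% on PacBio, 64 of them between 2500 and 4500 bp beyond the gene, averaged 38.1% on PacBio and reached 66.0%, but averaged 7.76% on ONT, where 62 of them were below 20%. On the inner side PacBio passed 50% at 1750 to 2000 bp into the gene, but low values returned deeper in it, with 16.6% at 2750 to 3000 bp and 13.5% at 4000 to 4250 bp, each over 4 CpGs. On ONT these steps had 38.0% and 15.6%, so only the deeper one was below 20% on both platforms.

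The other ends did not share this state. At the low-coordinate end of LOC132344466, where the annotated transcript stops, the window held 8 CpGs, with a PacBio level of 92.2% ± 9.36 (SD over CpGs) and an ONT level of 83.6% ± 5.86. Of these, 7 lay outside the gene and stood between 92.9% and 96.7% on PacBio. The remaining CpG, 464 bp inside the gene, had 69.2% on PacBio and 75.9% on ONT. The corresponding end of the second gene held 36 CpGs with 73.1% ± 15.6 on PacBio and 70.5% ± 14.7 on ONT, and none of them was below 20% on either platform. The unmethylated end minus the other end was -89.1 (PacBio) and -82.0 (ONT) points for LOC132344466, and -69.4 and -68.9 points for the second gene. The other end lay within 1 SD over the body's CpGs of the body level in both genes. The other end minus the body was 1.20 (PacBio) and 3.48 (ONT) points for LOC132344466, and 1.62 and 5.37 points for the second gene. With windows of 500 bp the other end of the second gene lay below the body on PacBio, at 69.8%, and above it on ONT, at 66.6%, and that of LOC132344466 had 82.2% on PacBio over 2 CpGs. In each gene the 2 windows did not overlap on either platform, which the choice of the genes brings with it. Just inside the 1 kb limit the other end of LOC132344466 had a CpG at 92.9% on PacBio and just outside it one at 92.7%, while the second gene had 54.4% and 92.9%.

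The bodies of the genes, taken from 2 kb inside each end, differed from each other. The body of LOC132344466 was highly methylated on average, with 91.0% ± 11.3 on PacBio and 80.1% ± 12.1 on ONT (SD over CpGs, n = 1007). Single CpGs ran from 8.4% to 97.4% on PacBio and from 14.3% to 98.75% on ONT, where 64.1% of them stood at 80% or above. On PacBio 912 of its 1007 CpGs, or 90.6%, stood at 80% or above and 3 stood below 20%. For comparison, over the whole chromosome 44.8% of CpGs were at 80% or above and 8.53% below 20% on PacBio, and 14.4% and 9.91% on ONT. The body of the second gene had 71.5% ± 25.8 on PacBio and 65.1% ± 23.4 on ONT (n = 2688). There 52.0% of the CpGs were at 80% or above on PacBio, 41.7% were between 20% and 80%, and 6.29% were below 20%. The second body minus the first was -19.5 (PacBio) and -14.97 (ONT) points. In size this is less than 1 SD over the CpGs of the second body and more than 1 SD over those of the first, on both platforms. It was also denser, with 18.3 CpGs per kb against 5.55.

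**Figure D2:**
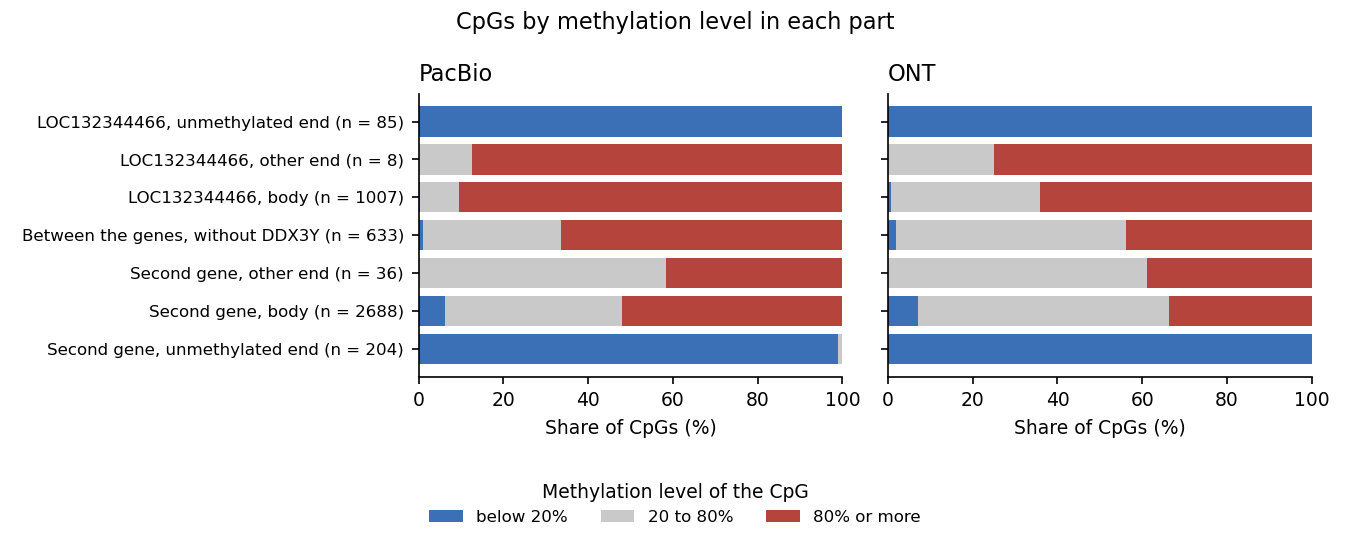
Share of CpGs (%) below 20%, from 20% to 80% and at 80% or more in each part of the genes and in the space between them, on PacBio (left) and ONT (right), with the number of CpGs at each part. The unmethylated ends consist almost wholly of CpGs below 20%, the body of LOC132344466 mostly of CpGs at 80% or more on PacBio (90.6%), and the body of the second gene of all 3 classes.

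In LOC132344466, beyond the first 10 kb from the unmethylated end, all 18 bins, 17 of 10 kb and a last one of 5.41 kb with 24 CpGs, were above 80% on PacBio, from 81.3% at 40 to 50 kb to 94.8%, with a median of 92.1%. The ONT bins ran from 75.1% to 85.6%. In the second gene the 14 full bins beyond the first 10 kb ran from 49.9% to 81.4% on PacBio with a median of 75.5%, and from 44.7% to 77.9% on ONT. Only 4 of them exceeded 80% on PacBio. The lowest bin on both platforms lay 110 to 120 kb from the unmethylated end, and 2 bins were below 60% on PacBio. Across the full bins the number of CpGs and the PacBio level had a Spearman correlation of 0.345 in LOC132344466 (17 bins) and 0.0901 in the second gene (14 bins), given as a description, since bins of a gene share one library.

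**Figure D3:**
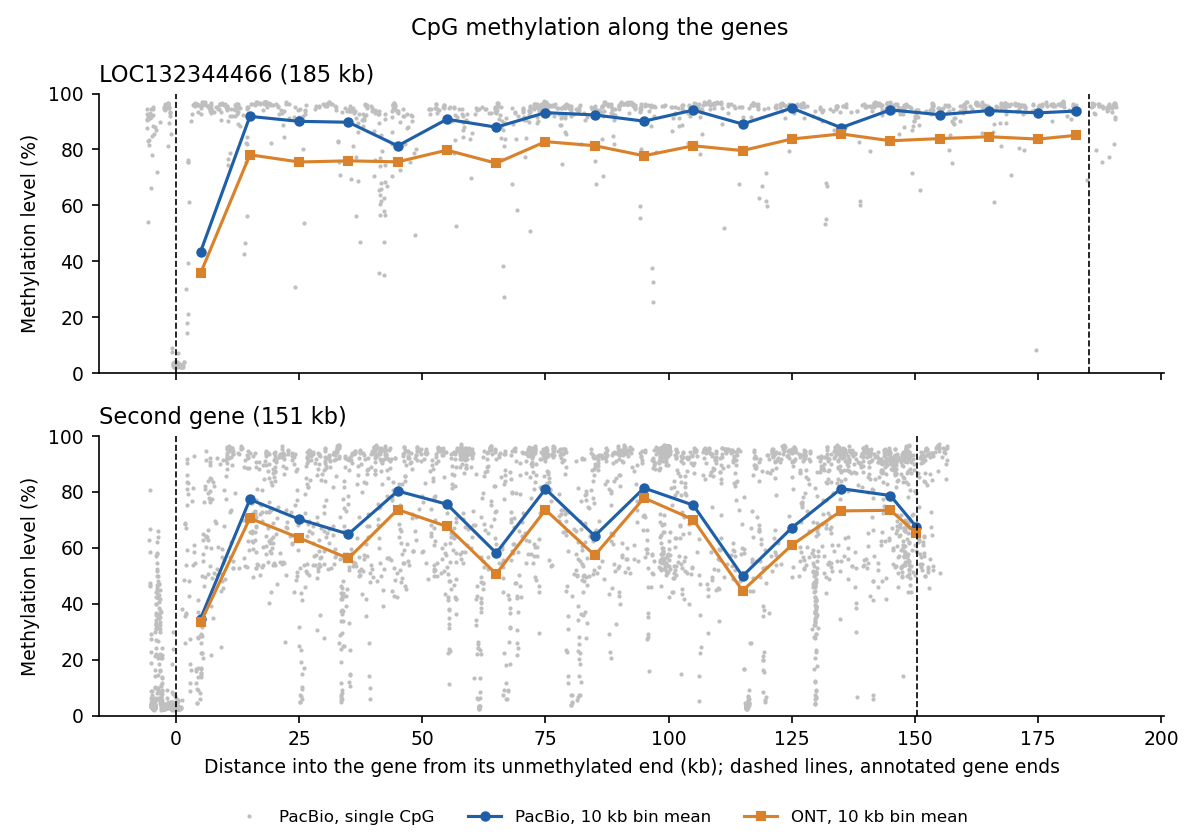
Methylation level (%) against the distance in kb from the unmethylated end, for single CpGs on PacBio (grey points) and for means of 10 kb bins on PacBio (circles) and ONT (squares), with the annotated gene ends as dashed lines. Both genes start low and rise within the first 10 kb, after which LOC132344466 stays between 81.3% and 94.8% on PacBio and the second gene varies between 49.9% and 81.4% with narrow columns of low CpGs.

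Short unmethylated runs occurred in the body of the second gene and not in that of LOC132344466. With runs of at least 5 CpGs, PacBio gave 11 runs in the second body, of which 9 overlapped an ONT run, and ONT also gave 11, of which 8 overlapped a PacBio run. In the body of LOC132344466 there were 0 runs on either platform. Per 1000 CpGs this was 0 runs for LOC132344466 and 4.09 for the second body on each platform, against 3.97 (PacBio) and 5.18 (ONT) over the whole chromosome. The second body was thus near the rate of the chromosome. The one with the most CpGs and the greatest length, at 7749996 to 7751067, held 54 CpGs over 1072 bp with levels of 5.33% on PacBio and 5.24% on ONT and the same borders on both platforms. Its centre lay 116 kb from the unmethylated end, within the lowest bin. The next by number of CpGs, at 7804564 to 7804955, held 15 CpGs with 5.91% on PacBio and 9.36% on ONT. The 11 PacBio runs covered 121 CpGs, and without them the second body had 74.4% ± 22.3 on PacBio and 67.7% ± 20.5 on ONT (n = 2567). The body of LOC132344466 without the 3 CpGs of it that belong to the run at the unmethylated end had 91.2% and 80.3% (n = 1004). The CpGs left out were picked for their low level, so these values are a description. The 1 annotated gene inside the second gene, LOC132344467, at 7855783 to 7856319, averaged 78.9% by PacBio and 75.0% by ONT over 47 CpGs including 1 kb on each side, and none was below 20% on either platform. The body of the second gene varied little with local CpG density up to 19 CpGs within 250 bp on each side, with 74.1%, 72.9% and 72.9% on PacBio for 1 to 4, 5 to 9 and 10 to 19 CpGs. At 20 CpGs or more it was 64.6% ± 32.5 (n = 492), a class that includes the CpG-dense runs.

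The second body held CpGs near the middle of the scale as well as low ones. On PacBio its CpGs had a peak at 90 to 95% (775 CpGs) and a second one at 50 to 55% (195 CpGs), with 78 CpGs at 75 to 80%. ONT showed no second peak there, with 137 CpGs at 50 to 55%, 239 at 65 to 70% and 354 at 85 to 90%. In all, 802 CpGs or 29.8% stood between 40% and 70%, against 45 CpGs or 4.47% in the body of LOC132344466 and 26.1% over the whole chromosome, so that the share in the second body was near that of the chromosome. A further 154 CpGs stood between 20% and 40% and 169 below 20%. On ONT these 802 CpGs averaged 56.5%, close to their PacBio mean of 56.2%, while the 1069 CpGs at 90% or more on PacBio averaged 82.7% on ONT and 93.8% on PacBio. The ONT strand rows of a CpG often differed in the middle band. They lay at least 30 points apart at 319 of the 802 CpGs (39.8%), at 69 of the 1069 CpGs at 90% or more (6.45%), and over the whole chromosome at 18.4% of CpGs between 40% and 70%. In the middle band of LOC132344466 they lay that far apart at 4 of 45 CpGs. The lower and upper rows had means of 55.1% and 58.0% over the 802 CpGs.

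**Figure D4:**
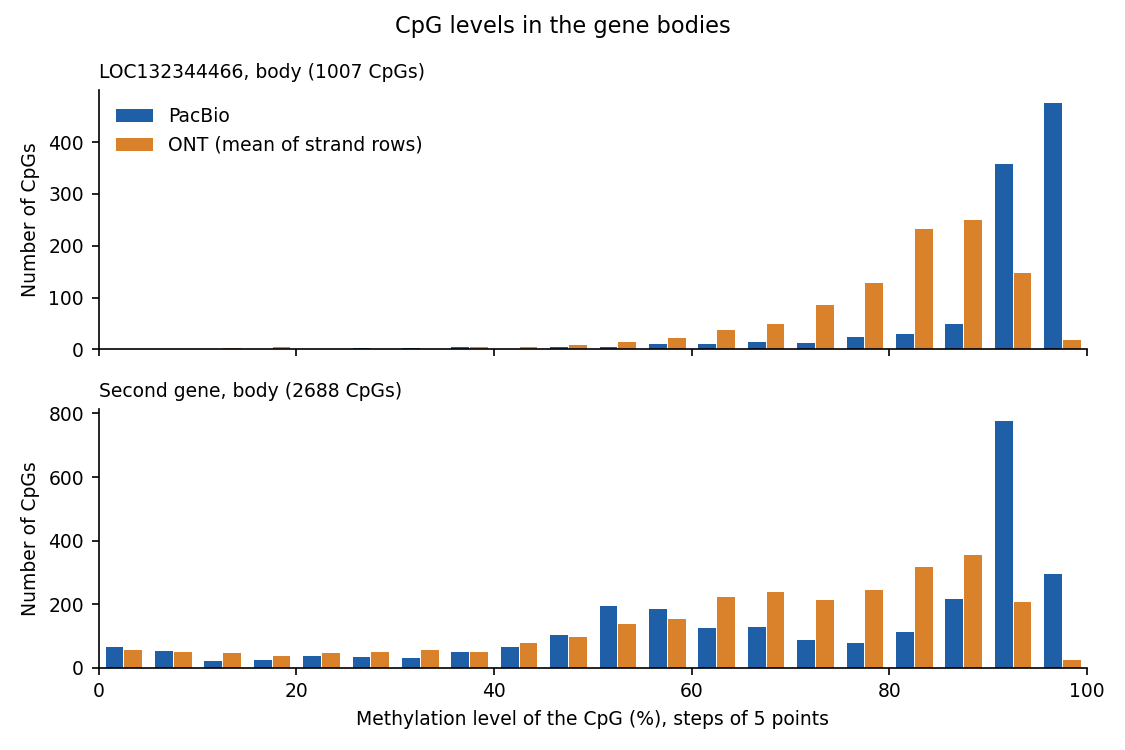
Number of CpGs by methylation level in steps of 5 percentage points, on PacBio and ONT, for the bodies of LOC132344466 (top, 1007 CpGs) and the second gene (bottom, 2688 CpGs). On PacBio LOC132344466 has 1 peak above 90%, whereas the second gene has a peak at 90 to 95% (775 CpGs) and a lower one at 50 to 55% (195 CpGs).

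Depth differed between the genes and, at its lower values, moved with the level of the second body. The median was 50 PacBio reads per CpG in the body of LOC132344466 and 68 in that of the second gene, where the MSY as a whole had 37 and the pseudoautosomal region (PAR) 78. In the end windows it was 52 and 69, and at the second gene it changed within the window from 73 inside the gene to 39 from 500 bp beyond it. In steps of 250 bp it stayed at 38 to 39 up to 2000 bp beyond the gene, and at 2000 to 2250 bp it was 74. Of the CpGs in the second body, 282 had fewer than 50 reads, with a median of 41, and stood at 82.9% ± 22.6 on PacBio and 72.2% on ONT. The 2406 with at least 50 reads, with a median of 70, stood at 70.1% ± 25.8 and 64.3%. The middle band held 7.80% of the former and 32.4% of the latter. In LOC132344466 the same division gave 90.3% over 473 CpGs and 91.5% over 534 CpGs on PacBio. The limit of 50 reads was chosen after the depth was seen, and the part of depth in the difference between the bodies was not tested. Divided at its median depth of 68 reads, the second body differed little, with 72.3% at or below it (1347 CpGs) and 70.6% above it (1341 CpGs) on PacBio, and 65.8% and 64.5% on ONT. Whether reads from another copy of the sequence enter the levels of the second gene was not tested, so they are levels of the reads placed there. The level at the unmethylated end of the second gene was low in both classes, 4.55% over 43 CpGs with fewer than 50 reads and 3.42% over 161 CpGs with more.

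The space between the genes, more than 1 kb from either, held 850 CpGs and contained 1 annotated gene, DDX3Y, at 7670282 to 7683444, which encodes a DEAD-box RNA helicase. With DDX3Y included, the space stood at 70.8% ± 31.7 on PacBio and 63.4% ± 29.4 on ONT. Without DDX3Y and 1 kb on its sides, 633 CpGs stood at 81.0% ± 18.97 and 72.7% ± 17.6. This lay between the bodies. On PacBio the body of LOC132344466 minus the space was 9.99 points and that of the second gene minus the space -9.54 points, and on ONT these were 7.43 and -7.53 points. With CpGs weighted by reads the space had 77.2% on PacBio. Each of these differences was smaller in size than 1 SD over the CpGs compared. The stretch from LOC132344466 to DDX3Y stood at 82.3% on PacBio and 73.4% on ONT, and that from DDX3Y to the second gene at 79.3% and 71.7%. In the latter the median depth was 71 reads, near that of the second gene, against 53 in the former. At DDX3Y the 1 kb window around the high-coordinate end averaged 27.3% by PacBio and 20.7% by ONT over 72 CpGs, above the 20% threshold on both. A PacBio run of 113 CpGs, at 7681240 to 7683444, stopped at its high-coordinate end and averaged 4.19% by PacBio and 2.10% by ONT. Unlike the runs at the neighbouring genes, it did not extend beyond the annotated gene.

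Differences between the platforms in points are bounded near 0 at the unmethylated ends, where the levels lie at the floor of the scale. ONT minus PacBio averaged -1.50 points at the unmethylated end of LOC132344466 and -10.9 points in its body. For the second gene these differences were -2.03 and -6.31 points, and -2.55 points at its other end. The mean absolute difference between the ONT strand rows was 2.53 points at the unmethylated end of LOC132344466 and 2.24 points at that of the second gene, where many rows stood at 0. In the bodies it was 12.0 and 16.4 points, and at the other end of the second gene 26.2 points over 36 CpGs. At the CpG 8 bp from that end, at position 7715840, the rows stood at 92.0% and 47.4%, and PacBio had 39 of 64 reads estimated as modified (60.9%, 95% Wilson interval 48.7 to 71.9). Across CpGs of the second body the platforms had a Pearson correlation of 0.882, and across those of LOC132344466, where most levels lie in a narrow range, of 0.607, both given as descriptions.

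Low ends of this kind were compared with those of the other long MSY genes. There were 10 protein-coding genes of at least 50 kb with at least 5 CpGs in each end window, the 2 genes described here among them. The lower end of a gene means here the end with the lower methylation level. It was the low-coordinate end in LOC100335202, LOC132344552 and LOC132344710 and the high-coordinate end in the other genes named here. In 6 of the 10 the lower end stood below 20%, on PacBio and on ONT alike, and in none did both ends. This count includes the 2 genes picked for a low end and takes the lower of 2 ends per gene. It is thus not in the unit of the share over all MSY gene ends, which was 2.04% on PacBio and 2.49% on ONT. Beside LOC132344466 and the second gene these were LOC132344515, at 23229408 to 23332043, with 3.30% on PacBio over 82 CpGs, LOC100335202 with 5.97% over 62 CpGs, ZFY, which encodes a zinc finger transcription factor, with 11.0% over 81 CpGs, and ZRSR2Y with 15.5% over 64 CpGs. The lower end of USP9Y, which encodes a ubiquitin-specific peptidase, had 68.3% over 8 CpGs. The 3 long genes nearest the long-arm end, LOC132344706, LOC132344552 and LOC132344710, had lower ends at 55.4%, 37.2% and 48.9%. EIF1AY, a shorter gene that encodes a translation initiation factor, had 69.4% at its lower end over 17 CpGs.

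The body of the second gene lay below those of 6 of the other long genes, LOC132344466 included. USP9Y, ZRSR2Y, ZFY and LOC132344515 had PacBio body levels of 90.3%, 92.2%, 87.2% and 89.4%, around that of LOC132344466, and LOC100335202 had 82.0%. The second gene, at 71.5%, lay below all of these and above the 3 genes nearest the long-arm end, which ranged from 50.1% to 54.5%. Among the 10 genes it had the highest CpG density in the body, the next being 9.58 CpGs per kb in ZRSR2Y, and also the greatest median depth, 68 reads against 41 to 61 in the others. These genes differ in position, depth and CpG density at once, whose parts in the order cannot be told apart.

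**Figure D5:**
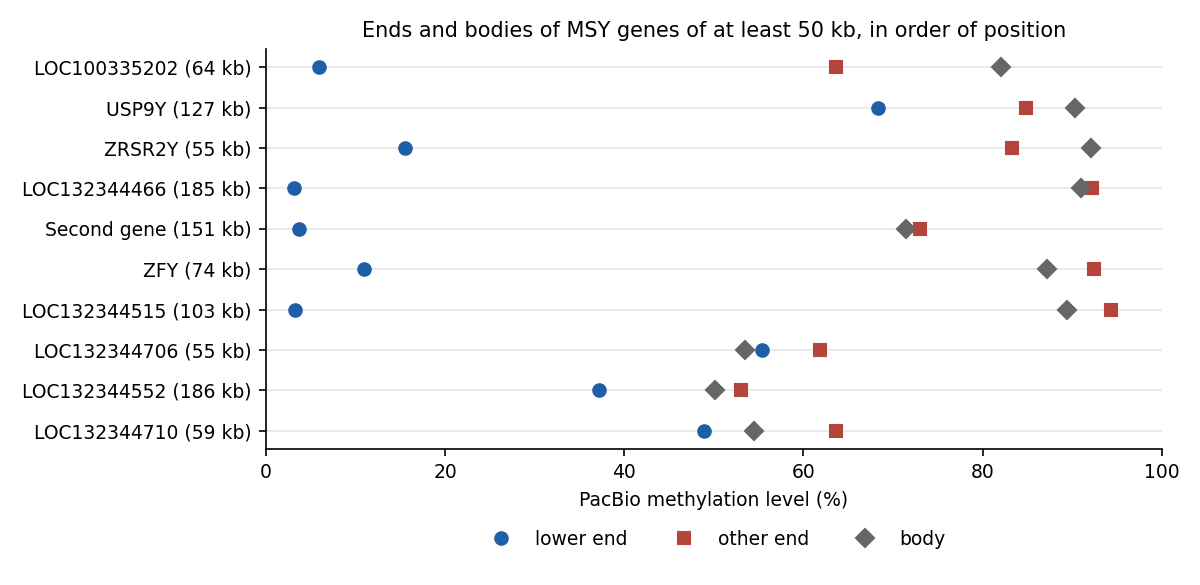
PacBio methylation level (%) at the end with the lower level (the lower end, circles), the other end (squares) and in the body (diamonds) of the 10 MSY protein-coding genes of at least 50 kb, listed in order of position with their length. In 6 genes the lower end lies below 20%, and in the second gene the body lies at 71.5%, between the genes around it and the last 3.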

How the data were processed

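Lung DNA was sequenced by the study on PacBio and ONT, 1 library each. For PacBio, the authors scored CpGs of HiFi reads with Primrose, aligned with pbmm2 and summarised with aligned_bam_to_cpg_scores. The deposited PacBio values are a score in percent, a read count per CpG, and the tool's estimated counts for modified and for unmodified reads. For ONT, the authors called modified bases with Dorado, aligned with Winnowmap and summarised with modbam2bed. The deposited ONT values are a percent per strand, without depth. The ONT calling model includes hydroxymethylcytosine.

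The PacBio data run opposite to the assembly and the ONT data are shifted by a constant. Both were converted to assembly positions, after which both ONT rows were found for 100% of PacBio CpGs. The coverage minimum was 10 PacBio reads, which kept 974748 of 975164 CpGs (median depth 40). Windows, runs and bins were computed with equal weight per CpG, with pandas 2.3.3 and numpy 2.4.6 under Python 3.11.15, correlations with scipy 1.17.1 and plots with matplotlib 3.10.9. Run calls and window means were tested on simulated levels, with unmethylated blocks planted in an evenly methylated background, a simpler setting than the data. No block as short as the minimum of 5 CpGs was planted, so the shortest runs were not covered. Gene positions came from the RefSeq gene table of ARS-UCD2.0. The symbol of the second gene is not reported here. Genes named for comparison were all MSY protein-coding genes of at least 50 kb with at least 5 CpGs at each end, EIF1AY, and genes inside or between the pair. The members, lists and thresholds were chosen with earlier results of these data known. Alternatives were other coverage minima, windows, thresholds, weights, estimated counts and single ONT rows.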

Additional observations from a re-analysis of the deposited data

How the results depend on the processing

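Of the recomputed values, 82 stayed close to the reported value and 44 did not. The coverage minima of 4 and 20 reads kept the same CpGs in every part, where no CpG had fewer than 32 reads. Levels and run lengths under these minima could not move, yet they are counted among the 82. For levels, close meant within the Wilson limits set around the reported mean with the PacBio read number of the part, for ONT also, where they are a yardstick and no counting interval. For run lengths and counts it meant within 1.5 times. The differences between an unmethylated end and the other end or the body kept their sign under these alternatives, which the choice of the genes brings with it. The moved values follow, and where no reason is given the cause was not tested.

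With windows of 2 kb the unmethylated end rose to 15.7% (PacBio) and 12.7% (ONT) in LOC132344466 and to 5.17% and 3.19% in the second gene, whose other end had 74.95% and 73.1%. With windows of 500 bp the unmethylated end of the second gene had 3.30% and 1.93%, its other end 69.8% and 66.6%, and the other end of LOC132344466 had 82.2% on PacBio over 2 CpGs. Levels from the estimated counts were 2.15% and 2.90% at the unmethylated ends, 91.99% and 71.8% in the bodies (LOC132344466 first), and 71.2% and 81.6% in the space with and without DDX3Y. Weighting by reads gave 90.7% and 70.9% in the bodies, and 69.2% and 77.2% in the space with and without DDX3Y.

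On ONT, the lower and upper rows alone gave 80.7% and 79.5% in the body of LOC132344466, 64.1% and 66.2% in that of the second gene, and 73.8% and 67.3% at its other end. Without CpGs holding an ONT 0, the unmethylated ends had 4.10% and 3.67%, the second body 66.3% and the space with DDX3Y 70.97%.

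Added after seeing the data, CpGs with fewer than 50 and at least 50 reads gave 90.3% and 91.5% (PacBio) and 79.3% and 80.8% (ONT) in the body of LOC132344466, and 82.9% and 70.1% (PacBio) and 72.2% and 64.3% (ONT) in that of the second gene. At the unmethylated end of the second gene those with fewer had 4.55% and 1.41%. A threshold of 30% lengthened the PacBio run at the end of the second gene from 1947 bp to 4491 bp, and raised the number of MSY gene ends below it from 9 to 29 on PacBio and from 11 to 47 on ONT.

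No paired analysis was possible because each platform has 1 library. ONT depth is unknown, the intervals cover PacBio counting error alone, and 1 library per platform gives no error between animals.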

Other observations

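Beyond the second gene, outside the 1 kb limit and in no annotated gene, lay a further unmethylated run. It spanned 3882 bp from 7882572 to 7886453, starting 16.2 kb from the gene end, and held 329 CpGs with 3.62% on PacBio and 1.70% on ONT. Its median depth was 37 reads, against 70.5 in the run of 172 CpGs from 7867052 to 7869137 next to the gene. Within that nearer run, however, the medians of 250 bp steps ranged from 38 to 74 reads. On the whole chromosome PacBio had 63 runs of at least 50 CpGs and ONT 58, of which 4 and 3 lay in the 2 genes or touched their 1 kb limits. A further run at 7896816 to 7897546, with a median of 237 reads over 7 CpGs, had 8.46% on PacBio and 35.6% on ONT.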
